A study of Homo sapiens with 12 samples.

Results

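The genes described here are 36 hypoxia-induced genes and hypoxia-inducible factors, of 56508 gene symbols measured in 2 human small cell lung cancer lines, H211 and H82. They were picked by name, and the set was taken up because DDIT4 and MIR210HG differed between the responses of the lines to an inhibitor of LSD1. The values of those 2 genes are therefore given as a description, with no test. Of the 36 genes, 33 reached a level of 1 in at least 3 of the 12 libraries and were measured, which left 31 others to test. Levels are TPM, a sequencing measure normalised to transcript length and library, that were rescaled between libraries and are called rescaled TPM below.

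Cells sense oxygen through prolyl hydroxylases, the EGLN enzymes, which mark the alpha subunits of hypoxia-inducible factor (HIF) for degradation when oxygen is present. When oxygen is low the alpha subunit, HIF1A or EPAS1, is kept, pairs with ARNT and binds a short DNA core, ACGTG or GCGTG, near its target genes. Those targets raise glucose uptake and glycolysis, restrain mitochondria, cross-link the extracellular matrix, and include EGLN3 and other brakes on the factor itself. Many of them also answer to other factors, so their messenger RNA is not a measure of oxygen or of HIF protein.

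H211 and H82 are established lines of small cell lung cancer, a tumour that usually has neuroendocrine features. The 4 groups, of 3 libraries each, were H211 with ORY-1001, H211 controls, H82 with ORY-1001 and H82 controls. ORY-1001 inhibits LSD1, the histone demethylase encoded by KDM1A, and was given at 1 µM, while the controls received the PBS vehicle. All cells are labelled wild type. The treatment time is 7 days in one field of the labels and 10 days in another, and each line is the only one of its kind here. Nothing in the labels says that the replicates were separate cultures, so every p-value covers no more than the variation among these libraries, and that variation could be technical.

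Sequencing depth is unknown, since counts were not analysed here. NEUROD1 averaged 129.9 ± 6.02 rescaled TPM in H82 with ORY-1001 and 137 ± 2.16 in H82 controls, while POU2F3 averaged 251 ± 9.85 in H211 with ORY-1001 and 281 ± 3.91 in H211 controls. Of 6 measured small cell lung cancer markers (of 7 listed), 5 fell in H82 with ORY-1001 and 0 rose, and in H211 1 rose and 0 fell. Over all genes 19.1% rose and 23.9% fell in H82, and 8.95% rose and 9.61% fell in H211. The summed level of 12 blood markers ran from 28.6 to 47.4 in H211 with ORY-1001, 43.4 to 136 in H211 controls, 28.1 to 141 in H82 with ORY-1001 and 41.2 to 55.9 in H82 controls. The sum was high in H211 controls 1 and 2 and in H82 with ORY-1001 replicate 3. An alternative left out these libraries and H211 with ORY-1001 replicate 3, the lowest of its group at 28.6, 4 in all; H82 with ORY-1001 replicate 1, which was lower still at 28.1, was kept. HBB was at 0 in 10 of the 12 libraries. The sum over 6 fibroblast markers was 65.3 to 72.0 in H211 with ORY-1001 and 7.28 to 7.90 in H211 controls, mostly DCN (63.9 ± 3.63 and 4.1 ± 0.282), and the 4 endothelial markers summed to at most 1.34 in any library. The part of these transcripts in the results was not tested. Counts without those 4 libraries are given for the members' drug responses and for their difference, and not for the other gene lists.

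DDIT4, also called REDD1, restrains the growth kinase complex mTORC1 and is induced by low oxygen, glucocorticoid and several stresses. In H211 it stood at 11.1, 10.9 and 12.7 rescaled TPM with ORY-1001, against 18.1, 18.1 and 19.8 in controls. H82 gave 219.5, 204 and 205 with ORY-1001 and 31.98, 29.2 and 26.6 in controls. The inhibitor and control libraries did not overlap in either line, and they lay in opposite order. The mean was 7.16-fold higher with ORY-1001 in H82 (log2 fold change 2.80, SE 0.07) and 1.61-fold lower in H211 (log2 fold change -0.65, SE 0.07). MIR210HG is the long non-coding host gene of the hypoxia-induced microRNA miR-210. Its level was 0.825, 0.987 and 1.16 in H211 with ORY-1001 and 1.91, 2.5 and 3.79 in H211 controls. In H82 it was 8.34, 9.61 and 7.15 with ORY-1001 and 0.353, 0.627 and 0.434 in controls, a mean 17.8-fold higher. Libraries of this gene likewise separated completely in both lines, in opposite order, from a low level: log2 fold changes were -0.88 in H211 and 2.67 in H82. Under other pseudocounts and settings the value of this low gene lay between -1.33 and -0.36 in H211 and between 1.29 and 3.91 in H82, and the difference between the lines between -5.24 and -1.65. Among 15456 measured genes ordered by the size of the difference between the lines' responses, MIR210HG ranked 17 and DDIT4 ranked 20, with differences of -3.55 and -3.45 on the log2 scale. These are the values that chose both genes. In whole cultures, fewer cells expressing a gene and less RNA per cell cannot be told apart.

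The start-site windows of both genes, 250 bases before to 50 bases after the transcription start, are shown because they hold the HIF core in both of its spellings. They are RefSeq sequences on build GRCh38.p14, given 5′ to 3′ on the gene's own strand. Capitals mark ACGTG or GCGTG on the strand shown, or their reverse complements CACGT and CACGC, and runs that overlap are joined, as in CACGTG. The DDIT4 window lies at chr10:72273674-72273973, plus strand, and the MIR210HG window at chr11:568408-568707, minus strand.
DDIT4: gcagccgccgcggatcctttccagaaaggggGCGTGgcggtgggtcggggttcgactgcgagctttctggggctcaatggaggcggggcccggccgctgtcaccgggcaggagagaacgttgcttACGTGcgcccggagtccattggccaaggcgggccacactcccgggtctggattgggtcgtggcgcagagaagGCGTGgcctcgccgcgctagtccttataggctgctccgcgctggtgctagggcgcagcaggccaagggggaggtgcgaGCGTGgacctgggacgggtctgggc
MIR210HG: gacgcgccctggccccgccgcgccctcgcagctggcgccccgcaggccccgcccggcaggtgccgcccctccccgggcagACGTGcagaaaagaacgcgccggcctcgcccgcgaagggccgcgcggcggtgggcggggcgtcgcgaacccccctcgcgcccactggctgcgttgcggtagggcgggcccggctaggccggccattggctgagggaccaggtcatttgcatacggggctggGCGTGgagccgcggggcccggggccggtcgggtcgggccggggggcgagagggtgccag
The mature microRNA made from the same locus is shown because it carries the seed that would pair with targets, with seed bases 2 to 8 in capitals. It lies inside the MIR210HG gene at chr11:568112-568133 on the minus strand, and its own level was not measured in these mRNA libraries.
hsa-miR-210-3p: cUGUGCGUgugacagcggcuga
A further 4 windows are shown for members with large changes in H82. BHLHE40 (chr3:4979187-4979486, plus strand), ANKRD37 (chr4:185396591-185396890, plus strand) and BNIP3 (chr10:131981874-131982173, minus strand) hold the core, BNIP3 in 5 separate runs, and EGLN3 (chr14:33951025-33951324, minus strand) holds neither spelling within this window.
BHLHE40: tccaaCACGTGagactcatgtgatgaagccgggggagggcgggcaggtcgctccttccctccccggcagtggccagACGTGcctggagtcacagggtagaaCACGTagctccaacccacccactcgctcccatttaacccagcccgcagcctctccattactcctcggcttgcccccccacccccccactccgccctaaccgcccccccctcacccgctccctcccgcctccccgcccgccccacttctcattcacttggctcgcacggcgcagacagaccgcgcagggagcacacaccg
ANKRD37: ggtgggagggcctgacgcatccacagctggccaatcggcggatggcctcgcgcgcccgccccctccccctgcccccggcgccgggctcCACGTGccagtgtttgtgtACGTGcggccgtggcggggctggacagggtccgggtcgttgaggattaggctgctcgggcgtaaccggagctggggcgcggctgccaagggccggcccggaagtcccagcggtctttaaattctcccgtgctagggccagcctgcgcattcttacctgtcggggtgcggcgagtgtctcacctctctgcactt
BNIP3: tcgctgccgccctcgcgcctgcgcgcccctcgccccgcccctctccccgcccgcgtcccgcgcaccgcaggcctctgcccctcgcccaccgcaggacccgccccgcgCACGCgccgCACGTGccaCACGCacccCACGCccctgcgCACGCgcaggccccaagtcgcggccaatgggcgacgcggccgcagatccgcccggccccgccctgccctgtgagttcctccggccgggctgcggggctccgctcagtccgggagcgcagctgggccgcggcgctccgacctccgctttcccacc
EGLN3: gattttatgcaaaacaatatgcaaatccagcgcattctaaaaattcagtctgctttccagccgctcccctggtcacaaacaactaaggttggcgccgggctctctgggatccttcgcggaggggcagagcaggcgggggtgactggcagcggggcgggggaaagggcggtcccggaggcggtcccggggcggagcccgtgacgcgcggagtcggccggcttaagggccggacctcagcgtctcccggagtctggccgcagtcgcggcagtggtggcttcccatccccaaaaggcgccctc

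RefSeq gave start-site windows for 32 of the 36 genes, 44 windows in all; BNIP3L, NDRG1, VEGFA and SLC2A3 had no entry. Searched on both strands, ACGTG was present in at least 1 window of 22 of the 32 genes (68.8%), against 24.9% of 27305 genes of the table with a window. GCGTG was present in 21 of 32 (65.6%), against 40.6%, and either spelling in 29 of 32 (90.6%), against 52.4%. The palindrome CACGTG, which holds ACGTG on both strands and is counted within it, was present in 9 of 32 genes (28.1%), against 8.77%. The members' windows are rich in CG pairs, with a median of 30 per window against 14 over all windows. Counted by window, 59.1% of the members' 44 windows held ACGTG and 61.4% held GCGTG. Among 7591 windows of any gene with a similar number of CG pairs, 27.5% held ACGTG and 58% held GCGTG, so the share with GCGTG was close to that of such windows. Of the members that rose with ORY-1001 in H82, 14 of 18 with a window held ACGTG (77.8%), and 6 of the 12 other tested or unmeasured members did (50%). The 12 include HIF1A, EPAS1 and ARNT, which are the factors themselves and held no ACGTG, so those shares set factors beside targets. A match describes the letters in the window and does not show binding.

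**Figure D1:**
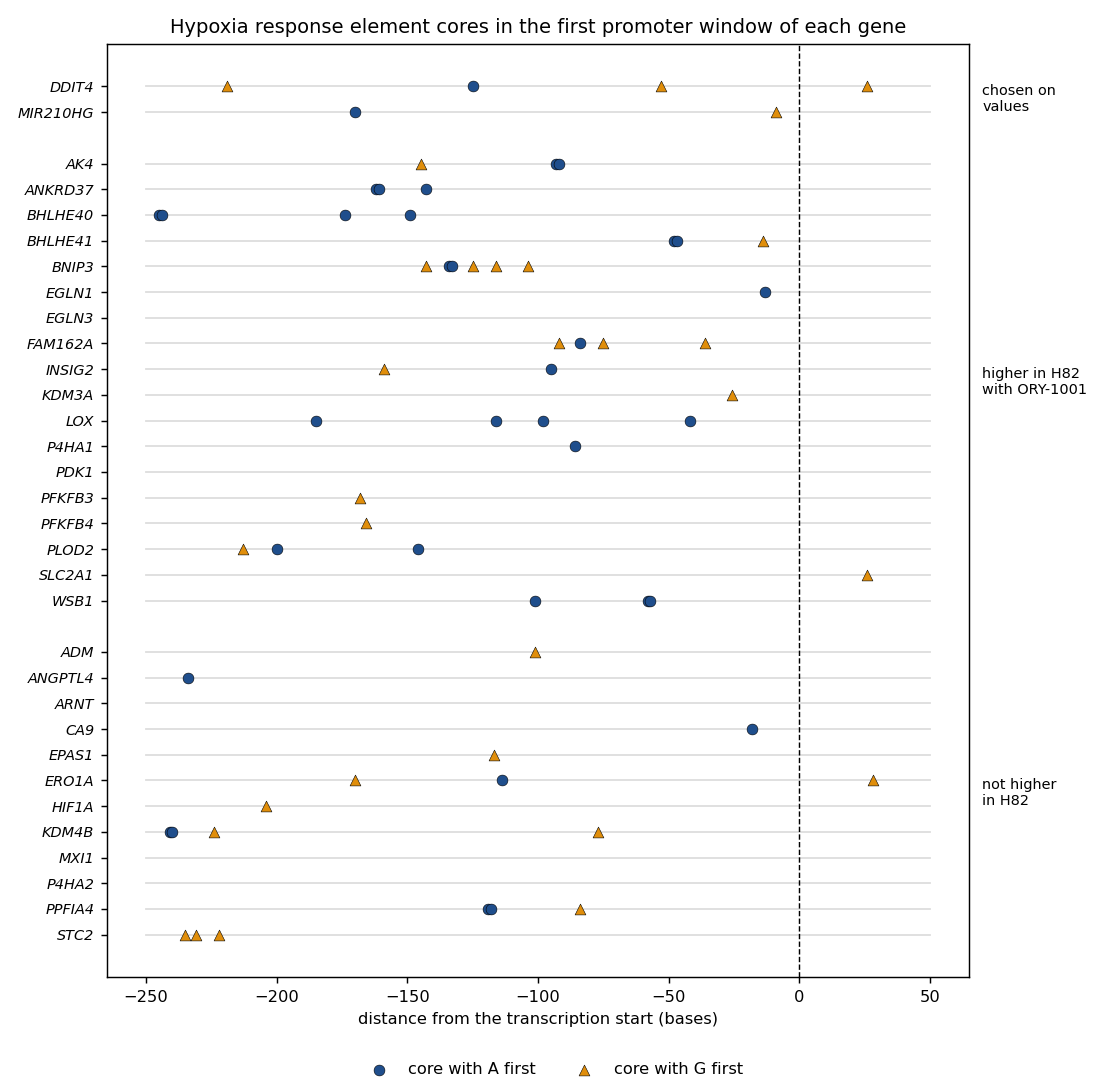
Positions of the HIF core in the first start-site window of each of 32 genes, in bases from the transcription start, which is at 0. Circles mark ACGTG and triangles mark GCGTG on either strand; 29 of the 32 genes hold at least 1 match when all their windows are counted.

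**Figure D2:**
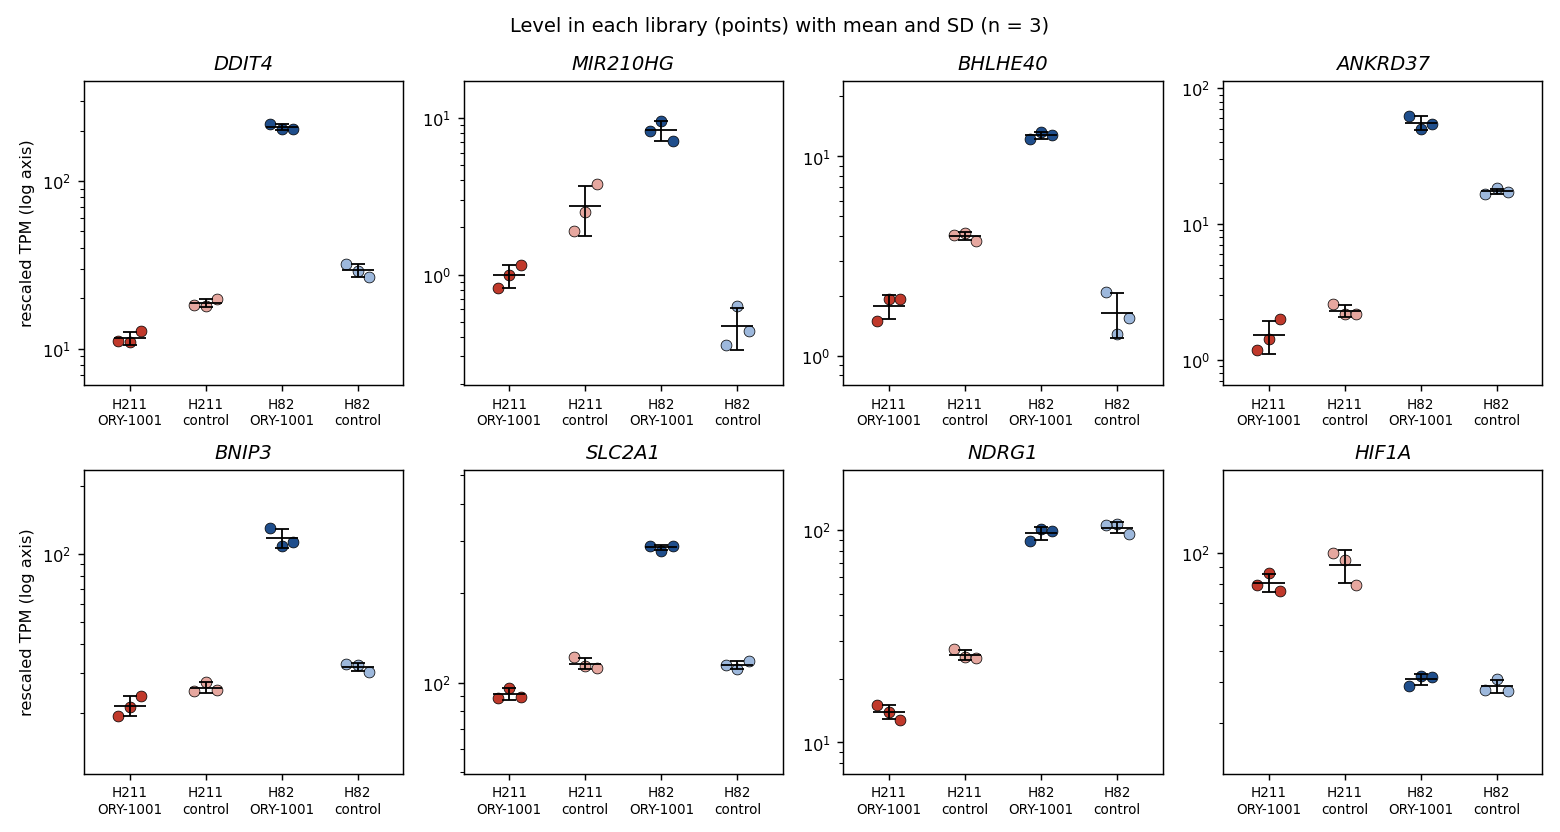
Rescaled TPM (log axis) of 8 genes in every library, with H211 left of H82 and ORY-1001 left of controls in each line. Points are libraries and bars show the mean and SD of 3; DDIT4, MIR210HG, BHLHE40, ANKRD37, BNIP3 and SLC2A1 are higher with ORY-1001 in H82 and not in H211.

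Of the 31 tested members, 20 rose in H82 and 14 fell in H211. In H211, of the 31 tested members, 1 rose (EGLN3), 14 fell and 16 did not pass the test with ORY-1001; of all 15456 genes, 18.6% passed, 8.95% higher and 9.61% lower. The 14 include CA9, which passed the filter only through the H211 controls and so had to be high there; without it 13 of 30 fell. Their median log2 fold change was -0.21, against -0.0021 over all genes. In H82, 20 rose, 3 fell (BNIP3L, P4HA2 and ARNT) and 8 did not pass the test, where 43% of all genes passed, 19.1% higher and 23.9% lower. The median there was 0.60, against -0.016 over all genes. The H211 count depended on the libraries: without the 4 named above, which leaves 1 H211 control, 0 rose and 1 fell (NDRG1) among 30 tested members, and over all genes 312 rose and 247 fell. Of the 14 that had fallen, CA9 no longer passed the filter and all the other 13 kept a negative value, such as -0.28 for SLC2A1, -0.82 for BHLHE40 and -0.28 for AK4 on the log2 scale. In the same setting 19 rose and 3 fell in H82. With all columns rescaled to the same total, 16 members fell in H211, and over all genes 951 rose and 1760 fell there, against 1383 and 1485 as deposited.

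Set side by side, 10 members fell in H211 and rose in H82, 9 rose in H82 and did not pass the test in H211, EGLN3 rose in both lines and P4HA2 fell in both. Over all genes 1.24%, or 192 of 15456, fell in H211 and rose in H82. The opposite order of the lines is what brought the set forward, so nothing is read from that count.

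**Figure D3:**
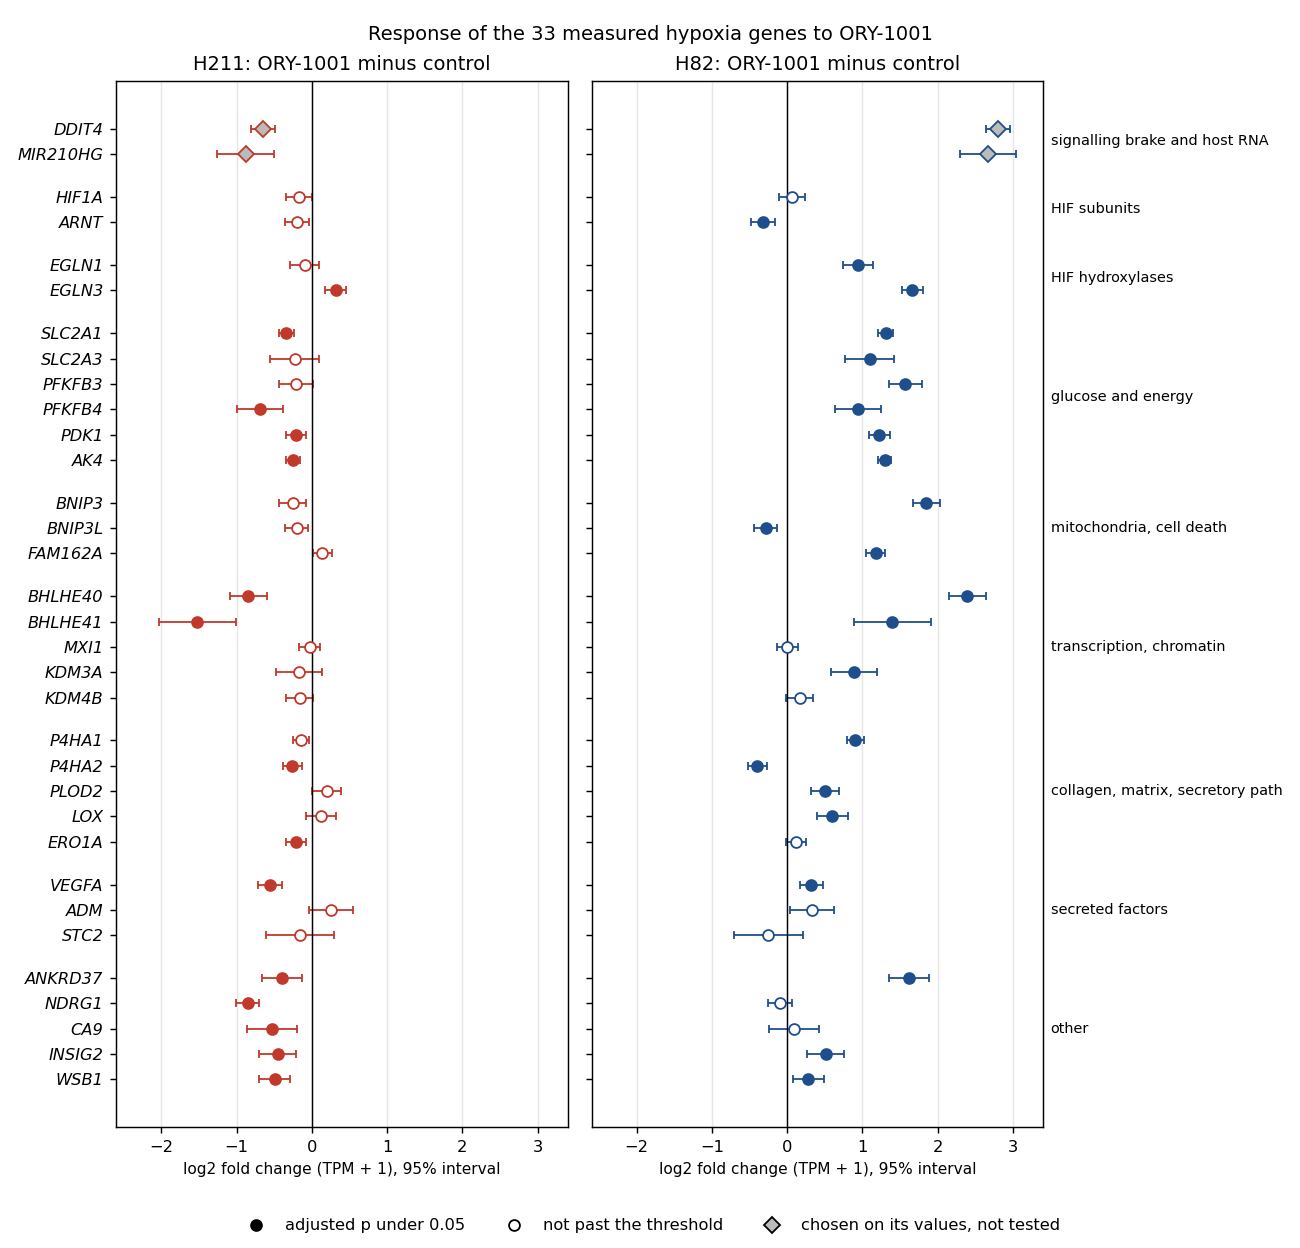
Log2 fold change with ORY-1001 against control, with 95% intervals, for the 33 measured members, H211 on the left and H82 on the right. In H82 20 of the 31 tested members lie above 0 past the test, and in H211 14 lie below 0 past the test; DDIT4 and MIR210HG are drawn without a test.

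Among the factors themselves, HIF1A encodes the oxygen-regulated subunit found in nearly all cells. It stood at 79.6, 86.6 and 76.3 rescaled TPM in H211 with ORY-1001, against 99.7, 95.2 and 79.5 in H211 controls (log2 fold change -0.17, SE 0.08, adjusted p = 0.164). In H82 it was 39.1, 41.8 and 41.4 with ORY-1001 and 37.95, 41.1 and 37.7 in controls (log2 fold change 0.07, SE 0.08, adjusted p = 0.546). The groups overlapped in both lines, and neither line passed the test. The intervals of the log2 fold change were -0.35 to 0.00163 in H211 and -0.11 to 0.24 in H82. ARNT, the constant partner, fell in H82, with 31.9 ± 2.69 with ORY-1001 and 39.8 ± 1.32 in controls (log2 fold change -0.32, SE 0.07, adjusted p = 0.0042). In H211 it was 24.2 ± 1.85 with ORY-1001 and 27.9 ± 1.57 in controls, and did not pass the test (adjusted p = 0.0827). EPAS1, which encodes HIF-2 alpha, did not reach the filter: its means were 0.27 ± 0.0149 in H211 with ORY-1001, 0.89 ± 0.155 in H211 controls, 0.171 ± 0.102 in H82 with ORY-1001 and 0.128 ± 0.034 in H82 controls.

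The oxygen sensors are both HIF regulators and HIF targets. EGLN3, the hydroxylase most strongly induced by hypoxia in many cells, rose in both lines. It stood at 109, 115 and 112 in H211 with ORY-1001 and 90.8, 92.99 and 85.1 in H211 controls (log2 fold change 0.32, SE 0.06, adjusted p = 0.00512). H82 had 22.8, 21.7 and 20.6 with ORY-1001 and 6.31, 6.68 and 5.58 in controls, a mean 3.5-fold higher (log2 fold change 1.66, SE 0.06, adjusted p = 1.29e-08). No inhibitor library overlapped a control in either line. EGLN1, the main sensor in normal oxygen, rose in H82 to 21.7 ± 1.73 with ORY-1001, against 10.8 ± 0.857 in controls (log2 fold change 0.94, SE 0.09, adjusted p = 1.01e-05). In H211 it averaged 23.2 ± 2.25 with ORY-1001 and 24.8 ± 1.97 in controls (adjusted p = 0.518).

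Among members of glucose uptake and glycolytic control, SLC2A1, PFKFB3, PFKFB4 and SLC2A3 rose in H82, and SLC2A1 and PFKFB4 fell in H211. SLC2A1 encodes the glucose transporter GLUT1. Its H211 libraries stood at 88.8, 96.3 and 89.1 with ORY-1001 and 122, 114 and 112 in controls (log2 fold change -0.34, SE 0.05, adjusted p = 4.03e-04), and its H82 libraries at 289, 279 and 289.9 with ORY-1001 and 115, 111 and 118 in controls (log2 fold change 1.31, SE 0.05, adjusted p = 5.64e-09). The H82 mean was 2.49-fold higher and the H211 mean 1.27-fold lower with the inhibitor, without overlap in either line, from nearly equal control levels. PFKFB3, which makes the activator of phosphofructokinase, reached 23.8, 26.4 and 28.05 in H82 with ORY-1001, against 8.94, 7.55 and 7.85 in H82 controls (log2 fold change 1.57, SE 0.10, adjusted p = 7.08e-07). In H211 it averaged 5.48 ± 0.297 with ORY-1001 and 6.51 ± 1.03 in controls (adjusted p = 0.199). Its relative PFKFB4 fell in H211, to 2.5 ± 0.541 with ORY-1001 against 4.62 ± 0.0444 in controls (log2 fold change -0.69), and rose in H82, to 5.73 ± 0.986 against 2.51 ± 0.45 (log2 fold change 0.93). SLC2A3, the transporter GLUT3, rose in H82 to 11.2 ± 0.109 with ORY-1001, against 4.74 ± 0.727 in controls (log2 fold change 1.1), and stayed under 1 in every H211 group mean.

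Among members that act on mitochondria and energy balance, PDK1, BNIP3, AK4 and FAM162A rose in H82 and BNIP3L fell. PDK1, a kinase that inhibits pyruvate dehydrogenase, was 40.7 ± 1.3 in H82 with ORY-1001 and 16.8 ± 0.562 in controls (log2 fold change 1.23, SE 0.06, adjusted p = 1.10e-07). In H211 it fell slightly, with 14.1 ± 0.976 against 16.5 ± 1.01 (log2 fold change -0.21, adjusted p = 0.0352). BNIP3, a receptor for the removal of mitochondria, had 130.4, 109 and 113 in H82 with ORY-1001 and 32.8, 32.4 and 30.3 in H82 controls, a mean 3.69-fold higher (log2 fold change 1.85, SE 0.08, adjusted p = 4.48e-08). The H211 libraries had 19.4, 21.3 and 23.8 with ORY-1001 and 24.9, 27.4 and 25.1 in controls and missed the threshold (adjusted p = 0.0518). Its paralogue BNIP3L went the other way in H82, with 68.9 ± 1.99 with ORY-1001 and 84.2 ± 1.63 in controls (log2 fold change -0.29, adjusted p = 0.00586). BNIP3L shares exon sequence with PNMA2 on the opposite strand, which averaged 20.0 ± 0.733 in H82 with ORY-1001 and 22.8 ± 0.914 in H82 controls. AK4, a mitochondrial adenylate kinase, was 179 ± 5.3 in H82 with ORY-1001 and 72.4 ± 0.786 in controls (log2 fold change 1.30, SE 0.04, adjusted p = 2.13e-09), and 60.5 ± 2.34 in H211 with ORY-1001 and 72.1 ± 2.11 in controls (log2 fold change -0.25, adjusted p = 0.00135). FAM162A, a mitochondrial protein linked to cell death in hypoxia, rose in H82 to 169 ± 12.1 against 74.3 ± 4.38 in controls (log2 fold change 1.18) and did not pass the test in H211.

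With the pseudocount of 1, the paralogues BHLHE40 and BHLHE41 gave the largest log2 changes among the tested members, BHLHE40 in H82 and BHLHE41 in H211. The H82 ranking depended on that setting. A pseudocount of 5 gave 1.42 for BHLHE40 in H82, while BNIP3 in H82 was at least 1.73 in every alternative. BHLHE40, also called DEC1, is a repressor of clock and metabolic genes. It had 1.5, 1.92 and 1.93 rescaled TPM in H211 with ORY-1001 and 4.04, 4.12 and 3.78 in H211 controls (log2 fold change -0.84, adjusted p = 4.48e-04). In H82 it had 12.3, 13.3 and 12.9 with ORY-1001 and 2.1, 1.28 and 1.55 in controls, a mean 7.79-fold higher (log2 fold change 2.40, SE 0.11, adjusted p = 7.41e-08). Inhibitor and control libraries separated completely in both lines, in opposite order. BHLHE41, the paralogue DEC2, followed: it stood at 2.05, 0.868 and 0.894 in H211 with ORY-1001 and 7.94, 4.67 and 4.02 in H211 controls (log2 fold change -1.52, SE 0.23, adjusted p = 0.00101). In H82 it averaged 3.25 ± 0.288 with ORY-1001 and 0.622 ± 0.229 in controls (log2 fold change 1.40, adjusted p = 5.38e-04). BHLHE41 exons overlap SSPN on the opposite strand, which averaged 1.60 ± 0.0864 in H211 with ORY-1001 and 1.98 ± 0.275 in H211 controls. ANKRD37, a small ankyrin-repeat protein and a well-known HIF target, had 62.9, 50.1 and 54.7 in H82 with ORY-1001 and 16.6, 18.3 and 17.4 in controls (log2 fold change 1.62, SE 0.12, adjusted p = 1.63e-06). In H211 it was 1.18, 1.42 and 1.998 with ORY-1001 and 2.59, 2.18 and 2.17 in controls (log2 fold change -0.40, adjusted p = 0.0386), at a level near 2. ANKRD37 exons overlap UFSP2 on the opposite strand, which averaged 22.5 ± 0.991 in H82 with ORY-1001 and 24.7 ± 0.775 in H82 controls. KDM3A, a histone H3 lysine 9 demethylase, rose in H82 to 27.3 ± 2.73 against 14.3 ± 1.65 in controls (log2 fold change 0.89) and did not pass the test in H211. MXI1, an antagonist of MYC, and KDM4B, another lysine 9 demethylase, passed in neither line, with log2 fold changes of -0.03 and -0.16 in H211 and 0.00152 and 0.16 in H82.

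Among matrix and protein-folding enzymes, P4HA1, PLOD2 and LOX rose and P4HA2 fell in H82, and P4HA2 and ERO1A fell in H211. P4HA1, a collagen prolyl hydroxylase subunit, rose in H82 to 28.9 ± 0.918 with ORY-1001 against 14.98 ± 0.43 in controls (log2 fold change 0.91). Its paralogue P4HA2 fell in both lines, to 10.3 ± 0.103 in H211 with ORY-1001 against 12.5 ± 0.545 in controls (log2 fold change -0.26, SE 0.06, adjusted p = 0.00885), and to 11.3 ± 0.195 in H82 against 15.2 ± 0.869 (log2 fold change -0.40). PLOD2, a lysyl hydroxylase, rose in H82 to 55.2 ± 3.18 against 38.9 ± 4.78 (log2 fold change 0.50). LOX, the collagen cross-linking lysyl oxidase, rose in H82 to 12.7 ± 0.328 against 8.1 ± 0.824 (log2 fold change 0.60) and was under 1 in both H211 means. LOX shares exon sequence with SRFBP1 on the opposite strand. ERO1A, an oxidase of the endoplasmic reticulum, fell in H211 to 25.3 ± 1.16 against 29.4 ± 0.476 (log2 fold change -0.21, adjusted p = 0.0384) and did not pass the test in H82 (log2 fold change 0.12). Members that rose in H82 and did not pass in H211 had log2 fold changes there from -0.26 for BNIP3 and -0.23 for SLC2A3 to 0.14 for FAM162A and 0.20 for PLOD2.

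VEGFA, WSB1 and INSIG2 fell in H211 and rose in H82, while NDRG1 fell in H211 and did not pass the test in H82. VEGFA, the vascular growth factor, fell in H211 to 16.6 ± 0.854 with ORY-1001 against 24.8 ± 1.12 in controls (log2 fold change -0.55, SE 0.07, adjusted p = 2.96e-04) and rose in H82 to 19.6 ± 0.853 against 15.5 ± 1.42 (log2 fold change 0.32). NDRG1, a stress-responsive gene often used as a hypoxia marker, had 14.9, 13.9 and 12.8 in H211 with ORY-1001 and 27.5, 25.2 and 24.9 in H211 controls (log2 fold change -0.85, SE 0.07, adjusted p = 1.17e-05). Its H82 libraries held 89.2, 102 and 98.6 with ORY-1001 and 106, 107 and 95.5 in controls and did not pass the test (adjusted p = 0.337); the inhibitor libraries all lay below the controls in H211. WSB1, an E3 ligase subunit, fell in H211 to 37.1 ± 2.72 against 52.7 ± 5.36 (log2 fold change -0.49, SE 0.09, adjusted p = 0.00373) and rose in H82 to 60.7 ± 2.1 against 50 ± 6.18 (log2 fold change 0.28, adjusted p = 0.0288). INSIG2, which retains the SREBP escort protein in the endoplasmic reticulum, fell in H211 to 14.1 ± 1.51 against 19.7 ± 2.18 (log2 fold change -0.45, SE 0.11, adjusted p = 0.0158) and rose in H82 to 12.2 ± 1.6 against 8.26 ± 0.709 (log2 fold change 0.51). The peptide hormone ADM averaged 10.2 ± 1.87 in H211 with ORY-1001 and 8.35 ± 0.677 in H211 controls, 0.585 ± 0.135 in H82 with ORY-1001 and 0.262 ± 0.14 in H82 controls. STC2, another secreted hormone, averaged 10.5 ± 1.94 in H211 with ORY-1001, 11.8 ± 0.83 in H211 controls, 0.62 ± 0.412 in H82 with ORY-1001 and 0.921 ± 0.454 in H82 controls. Neither passed the test in either line. CA9, the tumour-associated carbonic anhydrase, had a level near 1 in H211 and was tested only because its H211 controls were at 1 or more, so nothing is read from its call there. It averaged 0.658 ± 0.24 with ORY-1001 and 1.41 ± 0.489 in controls. CA9 exons overlap ARHGEF39 on the opposite strand, which averaged 2.65 ± 0.606 in H211 with ORY-1001 and 3.87 ± 0.654 in H211 controls.

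Some calls rested on single libraries. In H211, leaving out 1 library at a time ended the call of ANKRD37 (without any H211 control, H211 ORY-1001 replicate 1 or 2, H82 control 2 or 3, or H82 ORY-1001 replicate 3), ERO1A (any H211 control, H211 ORY-1001 replicate 1 or 3, H82 control 1, or H82 ORY-1001 replicate 2), PDK1 (H211 control 2 or 3, or ORY-1001 replicate 1 or 2), INSIG2 (H211 control 1 or ORY-1001 replicate 1) and CA9 (H211 ORY-1001 replicate 3). Without any 1 of the H211 controls CA9 no longer passed the filter and was not tested. The adjusted p then ran up to 0.135. WSB1 in H82 was lost without H82 control 2 or 3 or ORY-1001 replicate 1 or 3, with adjusted p from 0.0687 to 0.116. Conversely, calls appeared for BNIP3 (without H211 ORY-1001 replicate 3 or H82 ORY-1001 replicate 1), BNIP3L (H211 ORY-1001 replicate 1) and HIF1A (H211 control 3) in H211, all lower. In H82 they appeared for ADM (without H211 ORY-1001 replicate 3), ERO1A and KDM4B (H82 ORY-1001 replicate 1).

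At the filter, CA9 was kept by 3 libraries, all of them H211 controls, and MIR210HG was kept by 7. Just outside lay PPFIA4, a scaffold protein of the liprin family, with 2 libraries and a highest value of 1.36, and EPAS1, with 1 library and a highest value of 1.05. ANGPTL4, a secreted regulator of lipoprotein lipase, was outside as well, with a highest value of 0.323. Exons of 17 members overlap a gene on the opposite strand and those of 3 a gene on the same strand, and no source used here says whether reads were counted by strand, so those reads cannot be told apart.

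The test of the difference, the H211 response minus the H82 response, called 22 of the 31 tested members lower (21 of 30 without CA9) and 0 higher, where 32.1% of all genes were called, 14.3% lower and 17.8% higher. The contrast is the one behind the choice of the set, and its values are a description. Among the members that passed, differences ran from -3.24 for BHLHE40 to -0.33 for ERO1A on the log2 scale. The 9 that did not pass were ADM, BNIP3L, P4HA2, KDM4B, MXI1, HIF1A, ARNT, PLOD2 and STC2.

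**Figure D4:**
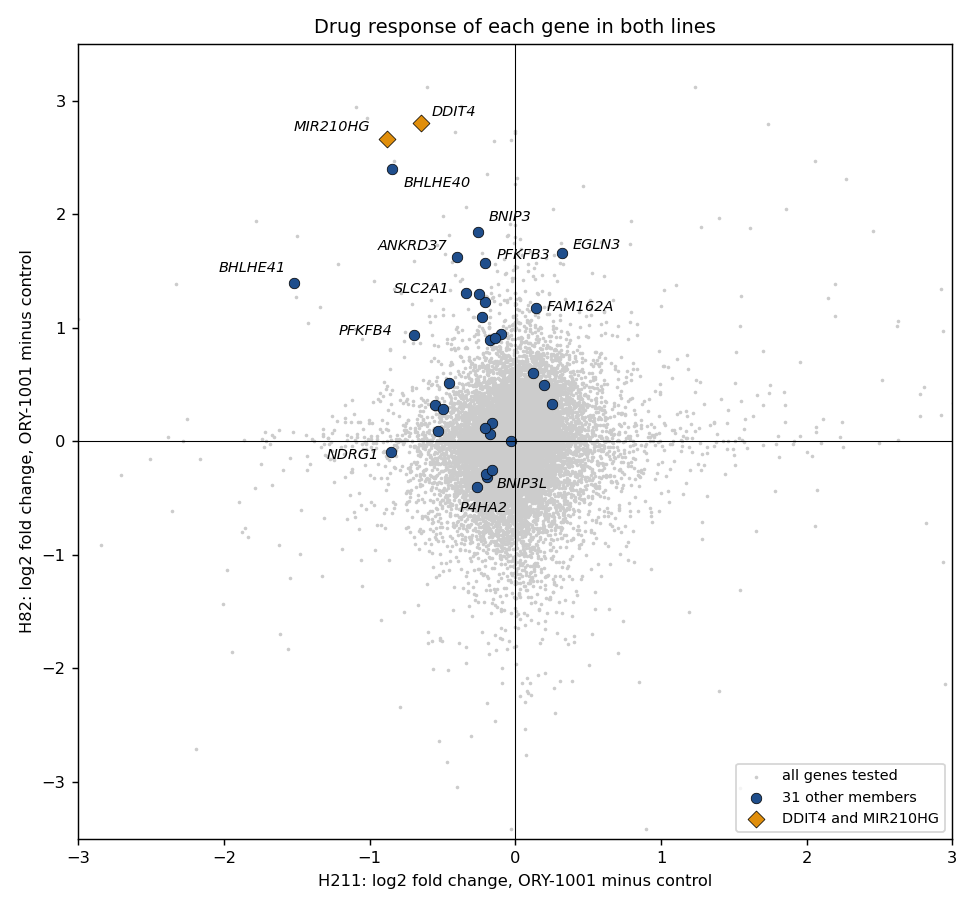
Log2 fold change with ORY-1001 in H82 (vertical axis) against that in H211 (horizontal axis). Members are coloured over all 15456 genes, of which 18 lie beyond the axes. DDIT4, MIR210HG and BHLHE40 lie highest among the members, left of 0. EGLN3 lies above 0 on both axes.

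Between the control cultures the members were called about as often as all genes. Of the 31 tested, 12 were higher in H211 controls and 12 higher in H82 controls, and 7 did not pass the test. So 77.4% were called, where 80.5% of all genes passed, 39.7% higher and 40.8% lower in H211. These counts include CA9, which passed the filter only through the H211 controls and so had to be high there. They also include ADM, which passed only through H211 libraries, and LOX and SLC2A3, which passed only through H82 libraries. Nothing is read from the calls of those genes between the controls. With columns rescaled to the same total, which moves the median of all genes by 0.11 on the log2 scale, 15 were higher and 9 lower in H211. EGLN3 was 14.5-fold higher in H211, with 89.6 ± 4.05 in H211 controls and 6.19 ± 0.556 in H82 controls (log2 fold change 3.66, SE 0.06, adjusted p = 6.28e-13). HIF1A was 2.35-fold higher in H211, at 91.5 ± 10.6 in H211 controls and 38.9 ± 1.86 in H82 controls (log2 difference 1.21, adjusted p = 3.59e-08). ADM and STC2 were near or under 1 in H82 controls and stood at 8.35 ± 0.677 and 11.8 ± 0.83 in H211 controls. The ADM levels are a description only. In the other direction, NDRG1 was 3.98-fold lower in H211 controls, with 25.9 ± 1.45 in H211 and 103 ± 6.39 in H82. BNIP3L (4.82-fold), ANKRD37 (7.54-fold) and MXI1 (3.3-fold) were also lower in H211 controls. The LOX mean was 14.2-fold lower there, which is a description only, since LOX passed the filter through H82 libraries. SLC2A1, AK4, PDK1, KDM3A, KDM4B, ERO1A and WSB1 did not pass the test between the control cultures, and the call of PFKFB3 was lost without H211 control 1 or 3 or H82 control 1 (adjusted p up to 0.0921). DDIT4, described only, had 18.7 ± 1.01 in H211 controls and 29.3 ± 2.67 in H82 controls.

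Other genes of the pathway were taken from lists that do not hold the members. Of 30 measured further hypoxia targets (of 35), 0 rose and 6 fell in H211, and 16 rose and 2 fell in H82, with median log2 fold changes of 0.0088 and 0.40 against -0.0021 and -0.016 over all genes. The shares were 0% higher and 20% lower in H211, where all genes gave 8.95% and 9.61%, and 53.3% higher and 6.67% lower in H82, where all genes gave 19.1% and 23.9%. LDHA, the lactate-forming enzyme, was 1758 ± 32.98 in H82 with ORY-1001 and 739.7 ± 14.1 in controls (log2 fold change 1.25), and did not pass in H211 (adjusted p = 0.544). SLC16A3, the lactate exporter MCT4, rose in H82 to 22.8 ± 2.38 against 4.69 ± 0.378 (log2 fold change 2.06), and CXCR4, a chemokine receptor, to 15.9 ± 1.43 against 1.18 ± 0.0822 (log2 fold change 2.96). ALDOC, an aldolase, fell in H211 (log2 fold change -0.47) and rose in H82 (0.90), and so did TXNIP, an inhibitor of glucose uptake (-0.76 in H211 and 0.96 in H82), and the nuclear receptor RORA (-0.71 and 1.21). RORA's H211 groups overlapped and its call was lost without H211 control 1 or 2 or ORY-1001 replicate 2 or 3. ZNF395 fell in both lines (-0.44 in H211 and -0.29 in H82), the H82 call being lost without H82 control 3 or ORY-1001 replicate 1. CCNG2, an atypical cyclin, fell in H211 (-0.52). Without the 4 libraries named beside the blood markers, 1 H211 control is left. The H211 log2 fold changes were then -0.38 for ALDOC, -0.73 for TXNIP, -0.18 for RORA and -0.56 for ZNF395. SLC16A3 had -0.85 there, against -0.34 with all libraries. CXCR4 missed the threshold in H211 (adjusted p = 0.0518) and was called lower there without H211 ORY-1001 replicate 3.

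The genes that make, modify or remove HIF form another list. Of 16 measured genes (of 17), 3 rose and 1 fell in H211, and 4 rose and 4 fell in H82. In H211 that is 18.8% higher and 6.25% lower, where all genes gave 8.95% and 9.61%. The H82 shares, 25% in each direction, lie near those of all genes (19.1% higher and 23.9% lower). The chaperone HSP90AA1, which holds HIF alpha, rose in both lines, to 502 ± 28.4 in H211 with ORY-1001 against 409 ± 9.37 in controls and to 607 ± 36.3 in H82 against 368 ± 5.36. VHL, which recognises hydroxylated HIF alpha, fell in H211 (log2 fold change -0.32, adjusted p = 0.0299) and rose in H82 (0.30, adjusted p = 0.0176). Both VHL calls were fragile: the H211 one was lost without H211 control 1 or 3 or ORY-1001 replicate 1 or 2, and the H82 one without H82 control 2 or 3 or ORY-1001 replicate 2 or 3. ELOB, its elongin partner, had log2 fold changes of 0.28 in H211 and 0.15 in H82, and SIAH2, a ligase for the hydroxylases, of 0.45 in H211 and -0.28 in H82. Each was past the test in both lines; the ELOB call in H82 was lost without H82 control 1 or 3 or ORY-1001 replicate 1, the SIAH2 call in H211 without H211 control 1, and the SIAH2 call in H82 without any of 9 single libraries (H211 controls 2 and 3, H211 ORY-1001 replicates 2 and 3, every H82 control, and H82 ORY-1001 replicates 2 and 3). SIAH1 changed by -0.35 in H82 (-0.23 without H82 ORY-1001 replicate 2), and the coactivator EP300 by -0.43, a call lost without H82 control 1 or 2 or ORY-1001 replicate 1 or 3. Without the 4 libraries named beside the blood markers, which leaves 1 H211 control, the H211 log2 fold changes were 0.23 for HSP90AA1, -0.40 for VHL, 0.22 for ELOB and 0.32 for SIAH2.

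DDIT4 acts on mTORC1, so its other regulators were counted: of 20 measured, 2 rose and 2 fell in H211, and 6 rose and 7 fell in H82. That is 10% each way in H211, about the 8.95% and 9.61% of all genes, and 30% higher and 35% lower in H82, against 19.1% and 23.9%. TSC1, a subunit of the complex through which DDIT4 restrains mTORC1, rose in H211 to 10.4 ± 1.15 with ORY-1001 against 4.94 ± 0.58 in controls (log2 fold change 0.94) and did not pass in H82 (adjusted p = 0.708). DDIT4L, the paralogue of DDIT4, rose in both lines (log2 fold change 0.59 in H211 and 1.03 in H82), and SESN2, a leucine sensor, fell in both (-0.60 and -1.78). FNIP1 fell in H211 (-0.66), a call lost without H211 control 1 or ORY-1001 replicate 1 or 3; in H82 it was called lower without H82 control 3. CASTOR1, an arginine sensor, fell in H82 (-0.73); the value was -0.45 without H82 control 3, and the call was lost with only the libraries compared in the fit (adjusted p = 0.0617, range over alternatives 0.00321 to 0.0633). Genes that share the other known inducers of DDIT4, namely glucocorticoid, p53 and ATF4, gave 0 higher and 5 lower of 12 measured (of 13) in H211 and 2 higher and 5 lower in H82. Over all genes 8.95% were higher and 9.61% lower in H211, and 19.1% higher and 23.9% lower in H82. The glucocorticoid target TSC22D3 fell in both lines (-1.05 in H211 and -1.27 in H82), and FKBP5, another, fell in H211 (-0.54) and rose in H82 (0.28). The stress factor ATF4 and its targets CHAC1 and TRIB3 fell in both lines, CHAC1 with log2 fold changes of -0.79 in H211 and -2.34 in H82, and DDIT3 fell in H82 (-1.17). The TRIB3 call in H211 was lost without H211 control 2 or ORY-1001 replicate 1. Without the 4 libraries named beside the blood markers, 1 H211 control is left. The H211 log2 fold changes were then 0.50 for DDIT4L, -0.53 for SESN2, -0.51 for FNIP1, -0.70 for CHAC1 and -0.17 for TRIB3.

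**Figure D5:**
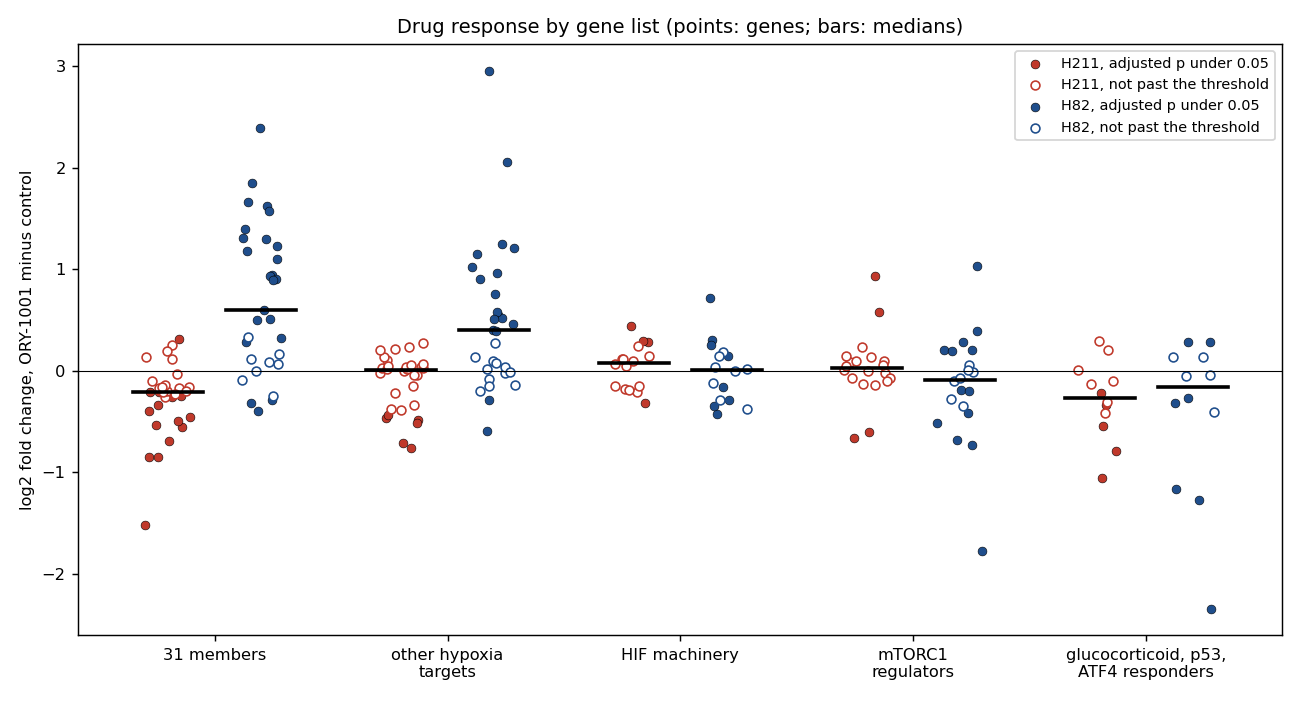
Log2 fold change with ORY-1001 for each measured gene of the members and of the 4 other lists, H211 left of H82, with a bar at the median. In H82 the members (median 0.60) and the further hypoxia targets (median 0.40) lie mostly above 0, while the HIF machinery has a median of 0.0062.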

How the data were processed

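The submitters' processing notes list R 4.0.4, sleuth 0.30.0, Salmon 1.1.0, DESeq2, Subread 1.5.2 with featureCounts, STAR 2.5.2b and Trimmomatic 0.36, on hg38, without saying what each did. The authors deposited a signal per gene symbol that resembles TPM rescaled between libraries: column totals run from 967415 to 1111988. Tests laid out for TPM were kept for this signal. Rescaling of this kind removes depth, so no counting error is given.

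Values were analysed as log2(value + 1), which understates changes of low genes. Genes at 1 or more in at least 3 of 12 libraries were kept (15456). The 4 group means were modelled together in limma 3.58.1 under R 4.3.3 with a trended eBayes prior. Two-sided p-values were adjusted by Benjamini-Hochberg over all genes, with calls at an adjusted p under 0.05. Each fold divides 2 group means, and ± gives the SD of 3 libraries. The fit was tested on simulated data. Alternatives covered pseudocount, filter, scaling, a replicate block and each library left out.

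The members and lists were chosen with earlier results of these data known. Members called with a higher-group mean of 5 or more were named with values, with full statistics for the 8 largest changes per line; HIF1A, EPAS1, ARNT, EGLN1 and EGLN3 were always named. From the other lists, genes called in both lines and up to 3 per line were named. Start-site windows come from RefSeq, GRCh38.p14, and gene overlaps from GENCODE 29.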

Additional observations from a re-analysis of the deposited data

Results flagged for a closer look

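The set was chosen on the contrast between the lines' responses to ORY-1001, so the values here are a description. For DDIT4 (-3.45) and MIR210HG (-3.55), values of the H211 minus the H82 log2 response, all libraries of one line moved one way and all of the other the opposite way; the difference was not tested, since it chose both genes. Of the 31 other members tested, 22 passed limma's test of the difference itself, where 32.1% of all genes did. Among the transcription and chromatin regulators the difference was -3.24 for BHLHE40, -2.92 for BHLHE41 and -1.06 for KDM3A. The difference was -2.02 for the ankyrin-repeat protein ANKRD37. For mitochondrial and energy genes it was -2.10 for BNIP3, -1.55 for AK4, -1.44 for PDK1 and -1.04 for FAM162A. Glucose genes gave -1.78 for PFKFB3, -1.65 for SLC2A1, -1.63 for PFKFB4 and -1.32 for SLC2A3. The sensors gave -1.34 for EGLN3 and -1.04 for EGLN1. Matrix and folding enzymes gave -1.05 for P4HA1, -0.48 for LOX and -0.33 for ERO1A. LOX was under 1 in both H211 means, and with a pseudocount of 0.1 its difference was -0.38 and did not pass limma's test (adjusted p = 0.213). The remaining differences were -0.96 for INSIG2, -0.87 for VEGFA, -0.78 for WSB1, -0.76 for NDRG1 and -0.62 for CA9. CA9 lost its call when any of 9 single libraries was left out, that is every H211 ORY-1001, H82 ORY-1001 and H82 control library, with adjusted p up to 0.103. Without any 1 of the H211 controls it did not pass the filter, so no omission of a single library kept the call.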

How the results depend on the processing

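Leaving out 1 library at a time, the tested members that rose in H211 stayed at 1 and those that fell ranged from 10 to 15; over all genes, 987 fell without H211 control 1 and 989 without H211 control 2, against 1485. In H82 19 to 21 rose and 3 fell throughout, the difference stayed at 0 higher and 21 to 23 lower, and between controls 11 to 12 were higher and 11 to 12 lower in H211. With the 4 libraries named beside the blood markers left out, an alternative chosen after seeing the data, 0 rose and 1 fell in H211, and 18 were lower in the difference. Over all genes that setting gave 312 higher and 247 lower in H211 (1383 and 1485 with all libraries) and 1687 higher and 1212 lower in the difference (2747 and 2209); it leaves fewer libraries. With columns rescaled to the same total, the control difference of AK4 turned to 0.123 on the log2 scale (adjusted p 0.00623) against -0.0062 as deposited. Deviations of same-numbered libraries correlated between -0.0804 and 0.0451 over genes, so no shared deviation was visible. Such values cannot show whether the samples were paired by design. With the replicate number as a block, 1 rose and 11 fell in H211, 21 rose and 3 fell in H82, and 0 were higher and 21 lower in the difference. A pseudocount of 5 lowers the log2 changes of low genes by construction. Unknown depth means that no counting error can be set on low genes such as MIR210HG and CA9.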
